A study of Xenopus laevis x Xenopus muelleri with 8 samples.

Results

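Keratins are the intermediate filament proteins of epithelial cells, and each filament is built from pairs of a type I and a type II keratin. In simple epithelia, such as the single layers that line organs and body cavities, the usual pair is keratin 8 (type II) with keratin 18 (type I), often joined by keratin 7 (type II). Stratified epithelia such as skin use other pairs. In the Xenopus ovary, keratins of the simple epithelial kind are known both from the oocyte itself, which carries a cortical keratin network, and from the epithelium around the ovary.

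The genes described here are the keratin genes of the ovary of hybrid frogs from a Xenopus laevis mother (Cape of South Africa) and a Xenopus muelleri father (Swaziland). All animals were hybrids, raised from eggs to adulthood under the same stated conditions, and the ovaries were sexually mature. By their titles, 4 arrays held normal ovary and 4 held sex-reversed ovary, as biological replicates. The labels do not say how sex had been reversed. On every array 11485 probe sets were measured on a log2 scale, of which 6798 were annotated with exactly 1 gene symbol. The rule took every one of these whose symbol, without its homeolog ending .L or .S, begins with krt and a digit, which gave 17 probe sets of 14 symbols. Xenopus laevis holds most genes as an L and an S copy, called homeologs, and the ending tells them apart. The family was picked because krt8.1.S and krt7.L had stood out on their values in this same comparison. These 2 genes were thus chosen by the difference they show, so their values are a description and carry no test.

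The arrays were not uniform. The source name of all 8 arrays says testis, against titles, descriptions and design that say ovary, and that of sex-reversed replicate 4 also says normal. Of 16 egg envelope, germ cell and other oocyte genes 15 lay above the upper quartile of all probe sets on all 8 arrays. The exception, zar2.S, lay between 6.04 and 7.05, above the array median (6.00 to 6.04) on all 8 arrays. Clustering on all probe sets split the arrays into 2 sets of 4, each with 2 normal and 2 sex-reversed ovaries. Array set 1 held normal replicates 1 and 4 with sex-reversed replicates 3 and 4, and array set 2 held the other arrays. Correlations across probe sets ran from 0.954 to 0.972 within a set and from 0.943 to 0.953 between sets. What separated the sets is not stated in the labels. Since the array was designed on X. laevis, mismatches with the paternal X. muelleri transcript can also lower a value.

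The name simple epithelial covers only some of the genes. Of the 17 probe sets, 4 belong to keratins that simple epithelia are known for, namely krt8.1.S, krt7.L, krt18.1.L and krt18.1.S. The other 13 carry symbols of the krt12, krt15, krt51, krt55, krt57, krt61, krt62, krt70 and krt78 genes. Several of these are known from skin, cornea or other stratified epithelia in mammals, or from embryonic epidermis in Xenopus. Most probe sets were dim. A total of 5 lay below the lower quartile of all probe sets (3.99 to 4.05) on all 8 arrays, and 1, that of krt18.1.L, lay above the median on all 8. Detection above background was not tested, so a difference between dim values may be understated or without meaning.

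The comparison asked whether keratin transcripts differ between normal and sex-reversed ovary. The type II keratins krt8.1.S and krt7.L had lower values in sex-reversed ovary, without overlap between the groups. In krt78.7.L, also named for a type II keratin, the groups overlapped. The type I partner krt18.1.L was bright in both groups, and its homeolog krt18.1.S varied widely within each. Neither krt8.1.S nor krt7.L passed the adjustment over all probe sets in limma, a linear model that shares information on the spread across probe sets. In these whole ovaries, fewer cells of a type and less RNA per cell cannot be told apart.

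Keratin 8, the most widespread type II keratin of simple epithelia, was represented by krt8.1.S. Its log2 values in normal ovary were 6.89, 7.02, 6.79 and 6.42 in replicates 1 to 4. In sex-reversed ovary they were 5.33, 4.75, 6.00 and 5.32. The 4 normal ovaries lay above the median of their arrays and the sex-reversed ovaries below it, with the nearest values 0.41 apart. The means were 6.78 ± 0.26 (SD, n = 4) and 5.35 ± 0.51 (SD, n = 4), a log2 difference of −1.43 ± 0.26 (SE) or 2.69-fold lower in sex-reversed ovary.

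The platform annotation names a further probe set krt7.L, after keratin 7, a type II keratin of ducts and of the mesothelium in mammals. This name rests on the annotation alone, and whether the probes belong to another type II keratin was not tested. Its log2 values were 4.32, 4.09, 5.09 and 4.21 in normal replicates 1 to 4 and 3.07, 3.29, 3.51 and 3.54 in sex-reversed replicates 1 to 4. Again the groups did not overlap, but the gene was dim, since all 4 sex-reversed ovaries lay below the lower quartile of their arrays and the normal ones above it. The means were 4.43 ± 0.45 (SD, n = 4) and 3.35 ± 0.22 (SD, n = 4), a log2 difference of −1.08 ± 0.24 (SE), or 2.11-fold. Normal replicate 3 was the highest, and without it the difference was −0.86.

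The arrays did not rank alike for these 2 genes. The lowest krt8.1.S value was in sex-reversed replicate 2 and the lowest krt7.L value in sex-reversed replicate 1. Among normal ovaries the highest were replicate 2 for krt8.1.S and replicate 3 for krt7.L. Sex-reversed replicate 4, the array with the contradictory source name, lay among the other sex-reversed ovaries for krt8.1.S and was 0.55 below the lowest normal ovary for krt7.L. With this array counted as normal, the differences were −1.13 ± 0.42 (SE) for krt8.1.S and −0.96 ± 0.31 (SE) for krt7.L, and without it −1.42 and −1.14. No probe set had krt8.1.L or krt7.S as its only symbol, so these homeologs were not analysed here.

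**Figure D1:**
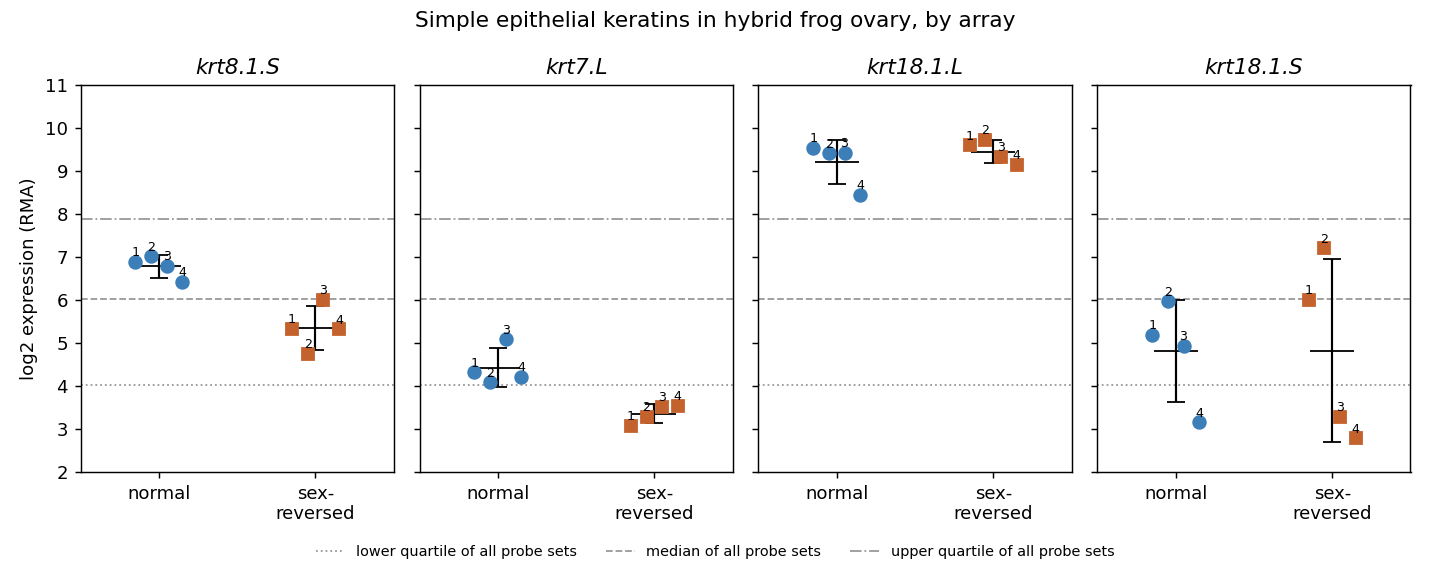
Log2 expression of krt8.1.S, krt7.L, krt18.1.L and krt18.1.S by array, in 4 normal (blue circles) and 4 sex-reversed ovaries (orange squares), with the replicate number at each point and the mean ± SD in black; grey lines mark the lower quartile, median and upper quartile of all probe sets. The groups are apart for krt8.1.S and krt7.L, krt18.1.L lies above the upper quartile on all 8 arrays, and krt18.1.S spreads from 2.78 to 7.20.

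Since the groups do not overlap for these 2 genes, their order within each array set follows from that, and only the sizes are described. In array set 1 the mean of krt8.1.S was 6.65 in the 2 normal and 5.66 in the 2 sex-reversed ovaries (−0.99), and in array set 2 it was 6.91 and 5.04 (−1.87). For krt7.L the difference was −0.75 in array set 1 and −1.41 in array set 2. Whether the size differs between the sets was not tested. With the array set as a covariate the estimates were −1.43 ± 0.27 (SE) and −1.08 ± 0.25 (SE). As the sets are balanced, this covariate cannot change the differences.

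Keratin 18 is the type I partner of keratin 8, and both of its homeologs were measured. Krt18.1.L had log2 values of 9.54, 9.41, 9.42 and 8.45 in normal replicates 1 to 4. In sex-reversed replicates 1 to 4 it had 9.60, 9.72, 9.33 and 9.14. The groups overlapped, with normal replicate 4 alone well below the rest. The log2 difference was 0.24 ± 0.26 (SE; 95% interval −0.35 to 0.84; adjusted p = 0.901 in limma), and without normal replicate 4 it was −0.01. The interval leaves out a 2-fold change in either direction.

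The homeolog krt18.1.S varied far more than krt18.1.L. Its log2 values were 5.19, 5.97, 4.94 and 3.16 in normal replicates 1 to 4 and 6.00, 7.20, 3.28 and 2.78 in sex-reversed replicates 1 to 4. The spread within each group was larger than the difference between them, with a log2 difference of 0.00 ± 1.02 (SE; 95% interval −2.31 to 2.31; adjusted p = 1 in limma). The interval reaches 4.95-fold on either side, so changes up to that size are not excluded. The values lay along the array sets instead, between 2.78 and 5.19 in array set 1 and between 4.94 and 7.20 in array set 2, with means of 3.60 and 6.03. The sets were found from all probe sets including this one, so this is a description. Sex-reversed minus normal ovary was −1.15 within array set 1 and 1.14 within array set 2. Leaving out 1 array at a time moved the overall difference between −0.80 and 0.68. Krt18.1.L differed between the sets in the same direction by 0.42, and krt8.1.S and krt7.L by −0.19 and −0.01.

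**Figure D2:**
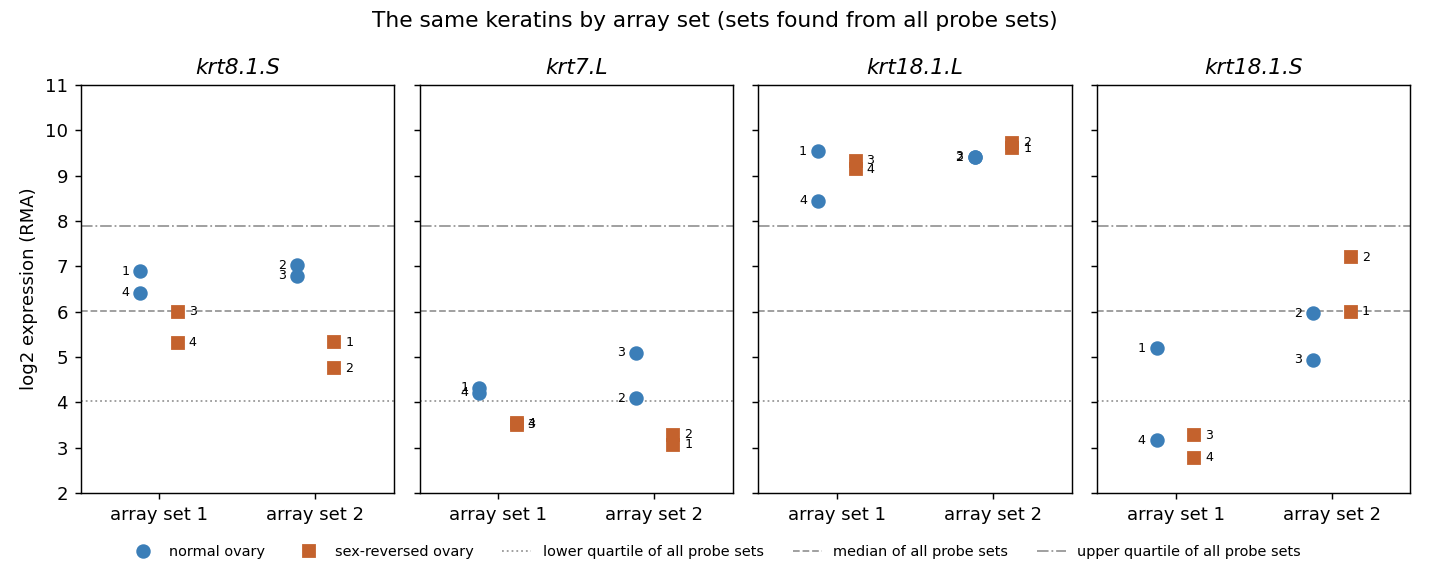
Log2 expression of the same keratins with the arrays placed by array set (2 sets of 4, from average-linkage clustering on all probe sets), normal ovaries as blue circles and sex-reversed ovaries as orange squares, numbered by replicate. The values of krt18.1.S run from 2.78 to 5.19 in array set 1 and from 4.94 to 7.20 in array set 2. Krt8.1.S and krt7.L were chosen on their difference in this comparison. As their groups do not overlap, the order within a set adds no information.

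None of the other keratins passed the unadjusted threshold. Over all 17 keratin probe sets, 2 were lower at an unadjusted p of 0.05 in limma and 0 were higher. Over all probe sets, 6.38% reached that threshold, 3.17% lower and 3.21% higher. The groups did not overlap in the same 2 keratin probe sets, both lower, where 1.96% of all probe sets were lower and 2.1% higher without overlap. Because these 2 genes were chosen on this comparison, nothing is read from their count. At an adjusted p of 0.05 no keratin and no probe set at all passed in limma (0 of 11485, or 0%), where 733 reached an unadjusted p of 0.05. The adjusted p was 0.582 for krt8.1.S, the lowest among keratins. The median difference over the 17 was 0.04, beside 0.00 over all probe sets, with 8 below and 9 above 0.

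Just outside the unadjusted threshold lay 1 of the krt70.S probe sets, and the next was that of krt15.1.S. The krt70 genes encode epidermal keratins known from the Xenopus embryo. This krt70.S probe set had values of 4.05, 3.92, 4.07 and 3.54 in normal replicates 1 to 4 and 3.40, 3.80, 3.70 and 3.11 in sex-reversed replicates 1 to 4, with overlapping groups. Its log2 difference was −0.39 ± 0.20 (SE; adjusted p = 0.800 in limma). The remaining krt70.S probe sets gave 0.34 ± 0.27 and 0.15 ± 0.35 (SE), and the homeolog krt70.L gave −0.18 ± 0.18 (SE). The 3 probe sets of krt70.S thus disagreed in sign. By their suffix, 2 of them, including the lower one, hold probes shared with similar sequences, so signal of related keratins cannot be kept apart. Without normal replicate 4, this probe set (−0.51) and krt61.L (−0.49) also fell under the unadjusted threshold, which made 4 lower keratins. Over all 11485 probe sets, 321 were lower at that threshold without this array. The 4 include krt8.1.S and krt7.L, chosen on this comparison, so nothing is read from the count.

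Krt15.1.S, named for a type I keratin of the basal layer of stratified epithelia in mammals, was dim. It measured 3.29, 2.92, 2.91 and 3.99 in normal replicates 1 to 4 and 3.34, 3.94, 3.25 and 4.11 in sex-reversed replicates 1 to 4. The ranges overlapped, with a difference of 0.38 ± 0.30 (SE; 95% interval −0.29 to 1.06). Krt78.7.L, named for a type II keratin of stratified epithelia in mammals, ranged from 4.01 to 4.94 in normal and from 4.24 to 4.64 in sex-reversed ovary. Krt57.L lay at 5.63 to 6.41 in normal and 5.97 to 6.14 in sex-reversed ovary. It lay above the median on 4 of 8 arrays, and its difference was 0.20 ± 0.19 (SE). Krt51.L ranged from 4.41 to 4.80 and from 4.48 to 4.92, with a difference of 0.04 ± 0.16 (SE).

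The groups overlapped for the remaining dim keratins too. Krt12.2.L belongs to a group of genes known from embryonic epidermis in Xenopus, and its 2 probe sets lay between 2.43 and 3.17 on all arrays. Their differences were 0.10 and −0.17. Krt55.L lay between 2.89 and 3.48, and krt62.L between 3.02 and 4.07. Krt61.L ranged from 2.94 to 4.31 in normal and from 3.23 to 3.82 in sex-reversed ovary. For 13 of the 15 probe sets other than krt8.1.S and krt7.L, the 95% interval of the difference stayed under a 2-fold change both ways. The 2 exceptions were krt18.1.S and krt15.1.S. Most of the 13 were dim, where a difference may be understated, so their intervals do not exclude a larger change in transcript. Adjusted p values of these 15 ran from 0.800 to 1 in limma.

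**Figure D3:**
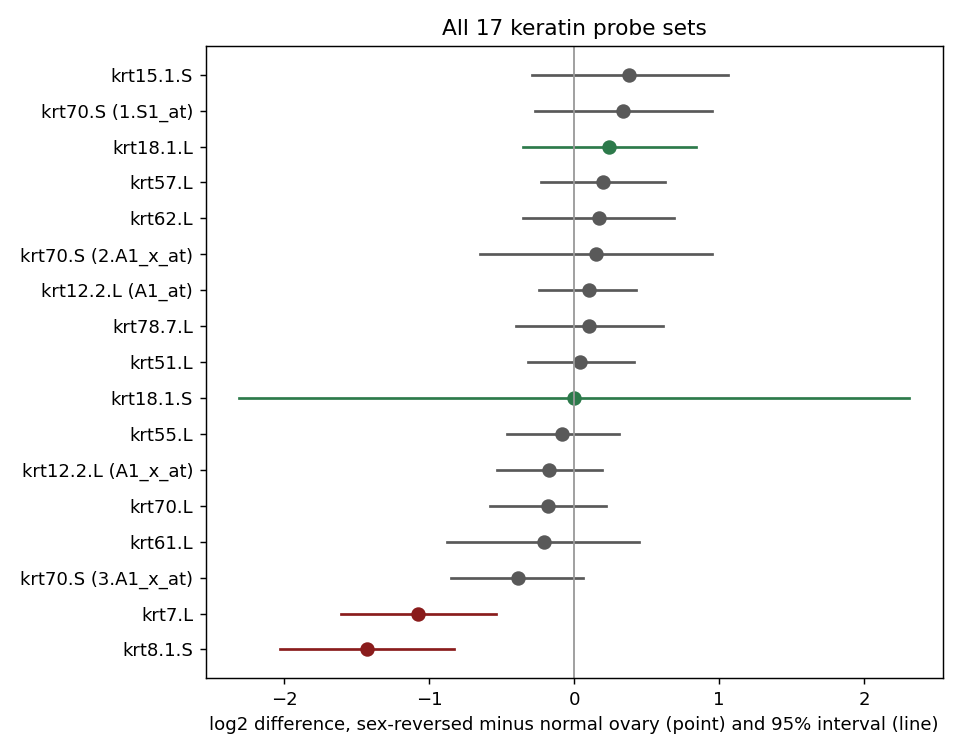
Log2 difference (sex-reversed minus normal ovary, points) with the 95% interval (lines) for all 17 keratin probe sets, with krt8.1.S and krt7.L in red, krt18 in green, others in grey, and the probe set ending in brackets where a symbol has several. Krt8.1.S at −1.43 and krt7.L at −1.08 lie apart from the other 15, which run from −0.39 to 0.38, and krt18.1.S has the widest interval.

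Which arrays gave the extreme values of the family is a description only, as the shares over all probe sets were not counted. Normal replicate 3 gave the highest normal value in 9 of the 17 probe sets and the lowest in 1. Normal replicate 4 gave the lowest normal value in 8 and the highest in 2. Among sex-reversed ovaries, replicate 4 was the highest in 8 probe sets. Replicate 3 was the lowest in 6, close to the 5 of replicate 2. Many of these probe sets are dim, some measure the same gene, and no batch is named in the labels.

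Genes that work with keratins and markers of cell types came from 12 lists, chosen with earlier results of these data known. Each gene had 1 probe set, the brightest. None of the 147 entries over all of these lists passed an adjusted p of 0.05 in limma. At an unadjusted p of 0.05, 10 were lower and 10 higher. Over all 5790 genes the unadjusted shares were 2.97% lower and 3.04% higher, and the median difference was 0.01.

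Other intermediate filament genes had 1 of 12 lower and 1 higher at the unadjusted threshold, with a median difference of 0.09. The lower one was vim.S, encoding vimentin, the filament protein of mesenchymal cells and also present in Xenopus oocytes. It measured 7.22, 7.30, 8.38 and 7.29 in normal replicates 1 to 4 and 6.43, 6.59, 6.28 and 7.50 in sex-reversed replicates 1 to 4. Only sex-reversed replicate 4 reached the normal range, and the difference was −0.84 ± 0.34 (SE; adjusted p = 0.771 in limma). The higher one, lmnb1.S, encodes a lamin of the nuclear envelope and differed by 0.63 ± 0.22 (SE), with no overlap between groups. The next smallest p was that of prph.L (−0.31), encoding the neuronal filament protein peripherin, which was dim on all arrays.

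Desmosomes are junctions that anchor keratin filaments. The list of desmosome and other keratin-associated genes had 0 of 13 lower and 1 higher, with a median difference of 0.02. The desmocollin gene dsc3.S differed by 0.94 ± 0.36 (SE) with overlapping groups. Plakophilin pkp3.S and periplakin ppl.L gave 0.45 and −0.28. The keratin anchor desmoplakin (dsp.S) was dim on all arrays (0.14 ± 0.21, SE). Plakoglobin, which links desmosomal cadherins to desmoplakin, gave −0.15 ± 0.24 for jup.L and 0.22 ± 0.16 (SE) for jup.S.

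Markers of simple epithelium and mesothelium other than keratins had 0 of 21 lower and 1 higher, with a median of 0.01. Listed genes such as msln, wt1, upk3b and lrrn4 were not among the 21 measured. Which cells of the ovary gave these values was not tested. Array means over this list were 7.86 to 8.03 in normal and 7.94 to 8.13 in sex-reversed ovary, so the ranges overlapped. The junction adhesion gene f11r.L was the higher one, at 0.46 ± 0.13 (SE; adjusted p = 0.667 in limma). Epcam.S, an epithelial adhesion gene, lay between 8.91 and 9.81 in normal and between 9.13 and 9.83 in sex-reversed ovary. Cdh1.S, encoding E-cadherin, was dim on all arrays (0.34 ± 0.17, SE). The dim tight junction gene marveld3.L and the uroplakin gene upk3a.L gave −0.41 and −0.30.

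**Figure D4:**
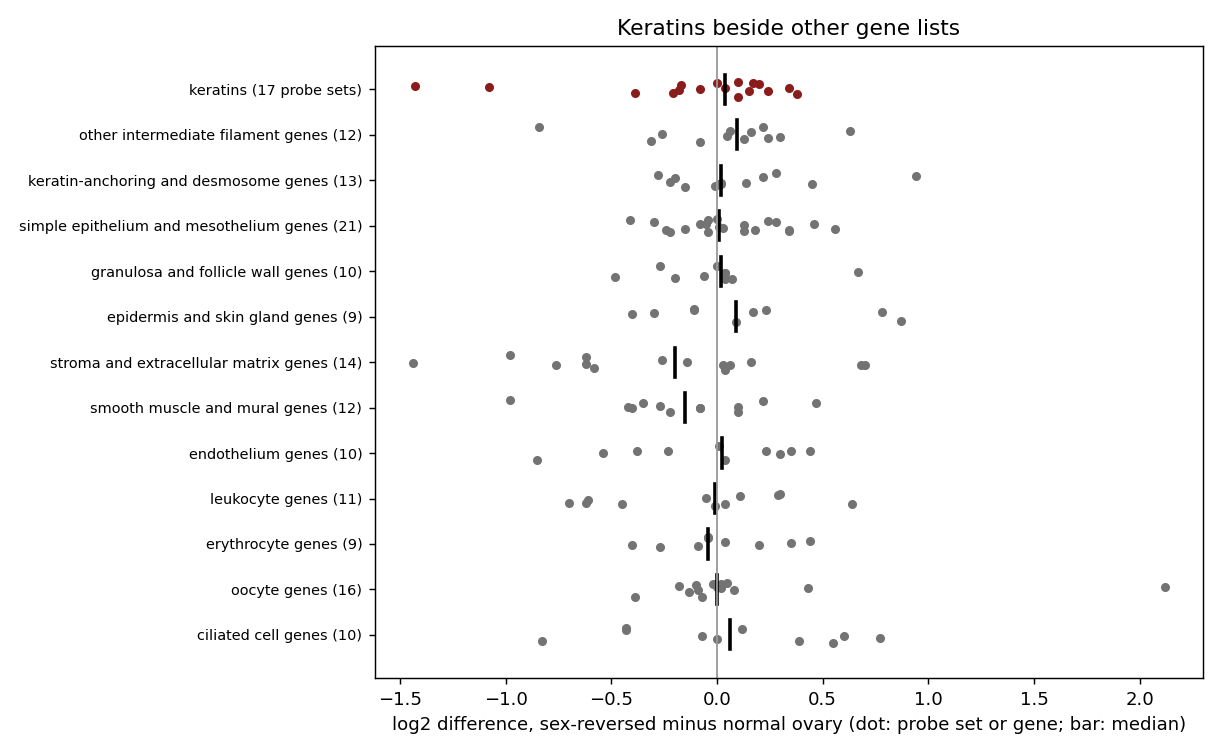
Log2 differences (sex-reversed minus normal ovary) of the 17 keratin probe sets (red) and of each measured gene in 12 other lists (grey, number of genes in brackets), with the median of each as a black bar. Krt8.1.S and krt7.L lie at the low end of the keratins, whose median is 0.04, and the stroma list has the lowest median, −0.20.

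Markers of other cell types were read beside the keratins. Stroma and extracellular matrix genes had 4 of 14 lower at the unadjusted threshold and 1 higher, with a median difference of −0.20. Of the 14 differences 8 lay below 0 and 6 above. Array means over this list were 5.91 to 6.32 in normal and 5.63 to 5.95 in sex-reversed ovary, so the ranges overlapped. The lower ones were the collagen genes col3a1.S (−1.44 ± 0.48, SE), col1a1.S (−0.98) and col6a1.L (−0.76) and the matrix gene sparc.S (−0.58). Its homeolog sparc.L gave 0.03 ± 0.29 (SE), and pdgfra.L was the higher one at 0.70. Normal replicate 3 gave the highest normal value in 7 of the 14 genes, and the share over all probe sets was not counted. Without normal replicate 3, col6a1.L differed by −0.43. Without normal replicate 4, pdgfra.L differed by 0.45. Smooth muscle genes had 1 of 12 lower (median −0.15), tagln.L at −0.98, followed by myl9.S at −0.40 and myh11.S at 0.47. Without sex-reversed replicate 2, tagln.L differed by −0.62. The part of these cells in the keratin values was not tested.

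Of endothelial genes 2 of 10 were lower and 0 higher (median 0.02), pecam1.L at −0.38 and cldn5.L at −0.54, while cldn5.S gave 0.35. Without normal replicate 2, cldn5.L differed by −0.36. Leukocyte genes had 1 of 11 lower and 1 higher (median −0.01), lcp1.S at −0.45 and cd247.S at 0.64, with itgb2.L at 0.30. Granulosa and follicle wall genes had 1 of 10 lower (median 0.02), the dim bmp2.S at −0.48, with gja1.L at 0.67 and fst.L at −0.27. In the epidermis and skin gland list 1 of 9 was higher (median 0.09), atp6v1b1.L at 0.78, beside klf17.L at 0.87 and itln1.L at −0.40. Ciliated cell genes had 2 of 10 higher (median 0.06), cfap36.L at 0.55 and rfx2.S at 0.60, with spag6.L at −0.43. Oocyte genes had 1 of 16 higher (median 0.00), ccnb2.S at 2.12 ± 0.89 (SE), with zar2.S at 0.43 and ddx4.L at −0.18. Normal replicates 1 and 4, both of array set 1, had ccnb2.S at 8.17 and 8.09. Sex-reversed replicates 3 and 4, of the same set, had 12.21 and 11.65. The other normal ovaries had 11.75 and 11.84, and all sex-reversed ovaries lay at 11.65 to 12.26. Erythrocyte genes had 1 of 9 higher (median −0.04), the dim ca2.L at 0.35, with hbg2.L at −0.40 and hba1.S at −0.27. Below the lower quartile on all 8 arrays lay 6 of 10 granulosa, 5 of 9 erythrocyte and 4 of 9 epidermis genes. Among the other intermediate filament genes it was 5 of 12. The medians of these lists thus rest in large part on dim values.

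The probe sets with 1 symbol most like krt8.1.S over the 8 arrays, keratins aside, were trip11.L (Pearson r = 0.953), elovl7.L (0.936), ocm4.4.S (0.918), dpepe.L (0.905) and MGC83206 (0.905). For krt7.L they were rpl34.L (r = 0.956), rabif.S (0.952), c4a.L (0.947), lgals4.1.s (0.945) and mettl7a.L (0.944). Since these keratins differ between the groups, genes with a like difference rank high by this measure. On deviations from the group means of the same 8 arrays, the nearest to krt8.1.S were qki.L (0.964), exoc5.L (0.951), fam185a.L (0.933), pltp.S (0.926) and cyrib.L (0.905). The nearest to krt7.L were xmc.L (0.994), ddt.S (0.970), rgr.S (0.962), cirbp.L (0.956) and seh1l.S (0.954). These are the highest values among all named probe sets over 8 arrays and are given as a description, and no gene was among the first 5 for both keratins or by both measures. All genes named as nearest to krt7.L, like krt7.L itself, were highest in normal replicate 3. Their r values may thus rest largely on that array. Xmc.L, pltp.S and ocm4.4.S lay below the lower quartile on all 8 arrays.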

How the data were processed

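RNA of 8 ovaries was hybridised to Affymetrix Xenopus laevis arrays. The authors deposited RMA values, here taken as log2 from their range, since no base is stated. The submitters' processing notes name RMA without a version. As RMA equalises the distributions of the arrays, a general rise or fall of transcripts is not visible. The number of arrays limits the precision. Gene symbols are those of the platform table, some of them outdated.

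All 11485 probe sets were fitted on 8 arrays with limma 3.58.1 (lmFit and eBayes, two-sided, Benjamini-Hochberg) in R 4.3.3, with no filter or covariate. The code was tested on simulated data. Figures used Python 3.11.15 and matplotlib 3.10.9. Nothing beyond the titles says how the animals were related, so the p-values reflect the scatter of these samples alone.

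The keratins, the lists and the tests were chosen with earlier results of these data known. Named genes were all keratin probe sets, the 3 list genes of smallest unadjusted p, vim, epcam, cdh1, dsp and jup, and the 5 nearest profiles. Col1a1.S, col6a1.L, sparc.L and tagln.S were added after their values were seen.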

Additional observations from a re-analysis of the deposited data

Results flagged for a closer look

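In groups of 4, a value was marked when its gap to the nearest other took up most of the group's range (Dixon's test). Of 34 keratin groups 3 were marked, and of all 156 groups of named probe sets 11. Chance marks about 1 in 20 independent groups. This rate does not apply to the nearest profiles, which were picked because they follow krt8.1.S or krt7.L across the arrays. Normal replicate 4 was low for krt18.1.L, at 8.45 against 9.41 to 9.54 in the other normal ovaries. Normal replicate 3 was high for a krt70.S probe set (4.20 against 3.16 to 3.27), for krt78.7.L (4.94 against 4.01 to 4.15) and for vim.S (8.38 against 7.22 to 7.30). It was also high for cirbp.L (6.98 against 5.65 to 5.71). That gene was picked for its likeness to krt7.L, which is highest in the same array, so it is not a separate case.

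The other marked values lay in single arrays. For trip11.L normal replicate 2 was high at 4.78 and sex-reversed replicate 2 low at 3.15. Normal replicate 4 was low for dpepe.L at 4.95. Sex-reversed replicate 1 was low for rfx2.S at 6.49, replicate 3 high for ocm4.4.S at 3.35, and replicate 4 low for ccnb2.S at 11.65. Trip11.L, dpepe.L and ocm4.4.S were picked for their likeness to krt8.1.S, so their marks are not separate from its values.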

How the results depend on the processing

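Krt8.1.S and krt7.L were lower under every setting run, but most settings could not have given another direction. The replicate block, the array set as a covariate, a trended robust prior, 1 probe set per gene and a filter on low values were run. In this balanced design these leave the difference itself unchanged. Array weights, median centring, renewed quantile normalization, sex-reversed replicate 4 as normal and each array left out were also run. As both genes were chosen on this difference and their groups do not overlap, leaving out an array cannot reverse it. Krt7.L has no value under the filter, which removed it with other dim probe sets. Leaving out each array gave −1.65 to −1.23 for krt8.1.S and −1.19 to −0.86 for krt7.L. The count of lower keratins at the unadjusted threshold was 1 under the filter, where 6 keratin probe sets were left, and 2 to 4 with an array left out. Over all probe sets, 275 of 8614 were lower under the filter and 295 to 416 of 11485 with an array left out. The keratin counts include krt8.1.S and, except under the filter, krt7.L. Both were chosen on this comparison, so nothing is read from these counts. The count of keratins passing the adjusted threshold was 0 in all of these settings. The median keratin difference ran from −0.05 to 0.10 with an array left out and was −0.11 with sex-reversed replicate 4 as normal. With the replicate block the differences were −1.43 and −1.08. Deviations of same-numbered arrays correlated at −0.195, 0.241, −0.193 and 0.174 for replicates 1 to 4. The positive ones were replicates 2 and 4, whose normal and sex-reversed arrays lay in the same array set. Whether equal numbers mark paired samples thus cannot be told from these values. Of the list genes at the unadjusted threshold, 4 moved by over 1.5 times without 1 array, a setting added after seeing the data. Signal over background was not measured.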
